A study of Homo sapiens with 4 samples.

Results

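The genes described here were those with at least 3-fold less RNA in both lapatinib-resistant clones than in their own parental cells. A probe was taken when its scaled signal in the clone minus that in the parental cells was at or below -1.585 on the log2 scale in SkBr3 and in BT474, when at least 50% of its spots were marked as well above background on all 4 arrays, and when its RefSeq accession matched a gene symbol. The scaled signal is the processed signal of the probe, as the mean of the log2 values over its spots, set so that the 75th percentile of each array equals 1000. The rule took 46 probes of 42 genes, out of 16398 named probes of 11517 genes that were well above background on all 4 arrays and 41000 probes in all. Since the probes were chosen by these clone-minus-parental differences, the size of the differences is given as a description, without a test.

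Total RNA was profiled with 1 array per sample and 4 samples in all. SkBr3 and BT474 are lines of HER2-positive breast cancer, and their parental cells are labeled as given vehicle. SkBr3/Lap and BT474/Lap are resistant to lapatinib, which blocks the kinase activity of EGFR and HER2. They were established by exposure to increasing lapatinib up to 1 μM. For its immunoblots the paper kept such clones in 1 μM lapatinib. It does not say whether the drug was present when RNA for the arrays was taken. Drug exposure at harvest and lasting resistance thus cannot be told apart. Each resistant group is 1 clone on 1 array, the labels and the paper number these clones the other way round, and no group has a replicate. Thus the spread between cultures or between clones of a line is unknown, and every value below compares single arrays. In these bulk samples, fewer cells with an RNA and less of it in each cell cannot be told apart.

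The 75th percentile of the signals ranged from 1115 to 2074 over the 4 arrays, and no spot was saturated. The SkBr3/Lap array shared its slide with no other array, so slide and clone cannot be told apart in the SkBr3 pair, whereas the BT474 pair shared a slide with the SkBr3 array. Of 8 markers of a luminal line with HER2 amplification, 7 were well above background in both SkBr3 groups, where CDH1 was not, and 8 in both BT474 groups. The scaled signal of ERBB2, which encodes HER2, was 3.74-fold lower in SkBr3/Lap and 1.57-fold lower in BT474/Lap. Of the amplicon genes among these markers, GRB7 changed by -1.19 in SkBr3/Lap and -0.19 in BT474/Lap (log2), and STARD3 by 0.11 and -0.45. The summed scaled signal of 15 immune cell markers ranged from 1675 to 2322 and that of 8 endothelial markers from 535 to 904. For the 9 fibroblast markers with a probe the sum was 1838 in SkBr3 cells against 6912 in SkBr3/Lap, and 1133 in BT474 cells against 1043 in BT474/Lap, with 2, 5, 1 and 1 of them well above background. The part of the fibroblast markers in the SkBr3/Lap results was not tested.

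HER2 is a receptor tyrosine kinase that, when amplified, drives the RAS-ERK and PI3K-AKT pathways. Active ERK induces immediate early genes such as EGR1 and negative feedback genes of the Sprouty, Spred and dual-specificity phosphatase families, and EGFR ligands such as amphiregulin are shed from the cell surface to act on the same or neighboring cells. Adhesion molecules of the CEACAM family sit on the surface of epithelial cells, and ligands of the TGF-β and BMP families signal through SMAD proteins. The genes lower in both clones are described in 6 groups by role, formed after the values were seen.

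Of the 16398 probes, 5.26% were at least 3-fold lower in SkBr3/Lap, 1.49% were so in BT474/Lap and 0.281% in both, which are the 46 probes. The 46 probes make up 5.34% of the probes lower in SkBr3/Lap and 18.9% of those lower in BT474/Lap. At least 3-fold higher were 4.59% of all probes in SkBr3/Lap and 2.33% in BT474/Lap. By the same limit, 84 probes (0.512%) were higher in both clones, 41 (0.25%) were higher in SkBr3/Lap and lower in BT474/Lap, and 55 (0.335%) were lower in SkBr3/Lap and higher in BT474/Lap. The median change of the 46 probes was -2.81 on the log2 scale (6.99-fold lower) in SkBr3/Lap and -2.13 (4.37-fold lower) in BT474/Lap, and over all probes tested the medians were -0.09 and -0.11. In SkBr3/Lap, 40 probes were at least 4-fold lower, 18 at least 8-fold and 11 at least 16-fold. In BT474/Lap the corresponding numbers were 26, 8 and 4. The difference was larger in SkBr3/Lap for 33 probes and in BT474/Lap for 13, and 26 probes differed less than 2-fold between the clones in the size of the change.

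**Figure D1:**
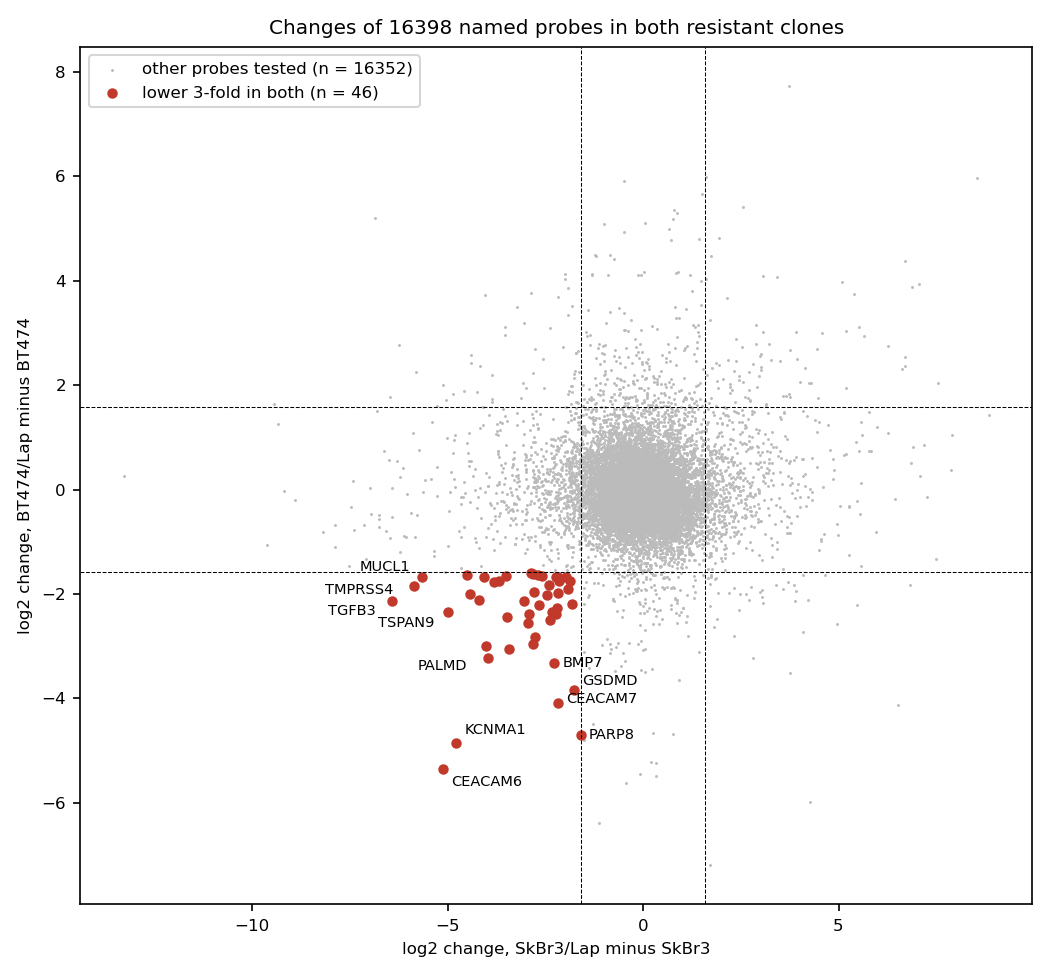
Log2 change of the scaled signal in SkBr3/Lap (x axis) and BT474/Lap (y axis), each minus its parental cells, for the 16398 named probes that passed the filter. Dashed lines mark 3-fold; the 46 probes taken by the rule (red) fill the lower left corner, with TGFB3 at -6.42 farthest left and CEACAM6 at -5.35 lowest.

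Both clone signals were below both parental signals for 37 of the 46 probes, against 12.9% of all probes tested, a share that the rule itself raises. For the other 9 probes (CD302, MNX1, TMPRSS4, GSDMD, AREG, SEMA3E, MUCL1, SERPINA3 and PARP8) the signal in 1 clone was at or above that in the parental cells of the other line. The parental lines were at least 3-fold apart for 20 of the 46 probes (43.5%), of which 11 were higher in SkBr3 and 9 in BT474, and for 16.7% of all probes tested. The scaled signals of the 46 probes ranged from 26.4 to 46159 in SkBr3, with a median of 681, and from 36.3 to 91010 in BT474, with a median of 615. In SkBr3/Lap the median was 72.1, and 8 probes were under 2 times the lowest signal that passed as well above background. These were the probes of CEACAM6, FLT4, FMO5, FTMT, MUCL1, NCALD, OPLAH and TSPAN9. In BT474/Lap the same held for 9 probes, those of CD302, FLT4, FMO5, FTMT, GSDMD, KCNMA1, OPLAH, PALMD and PARP8.

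**Figure D2:**
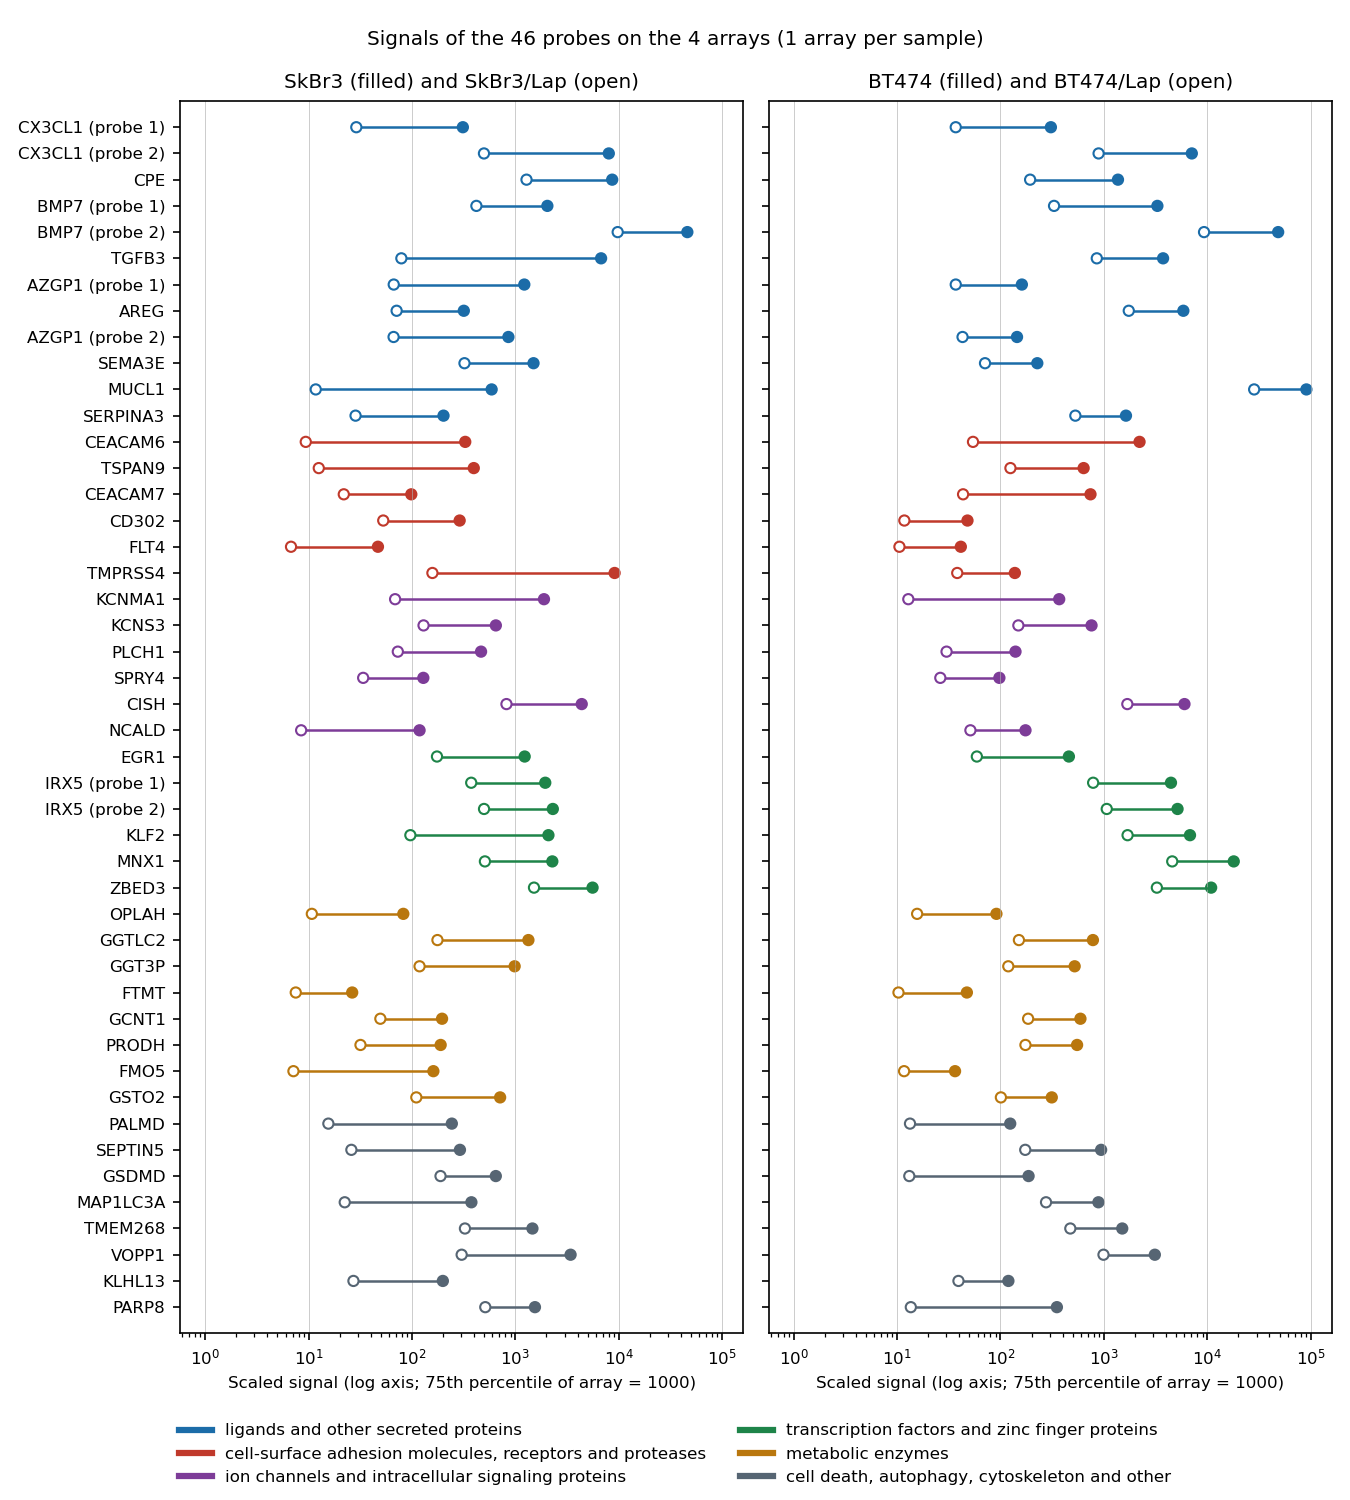
Scaled signal (log axis, 75th percentile of each array = 1000) of the 46 probes in parental cells (filled) and the resistant clone (open), for SkBr3 at left and BT474 at right, colored by role. Each point is 1 array, and every open point lies at least 3-fold to the left of its filled point.

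Among cell-surface proteins, CEACAM6 had the largest smaller-of-both difference of all 42 genes. CEACAM6 and CEACAM7 encode glycosylphosphatidylinositol-anchored adhesion molecules of the carcinoembryonic antigen family. The scaled signal of CEACAM6 was 328 in SkBr3 cells against 9.40 in SkBr3/Lap, and 2213 in BT474 cells against 54.2 in BT474/Lap, which was 34.9-fold lower in SkBr3/Lap and 40.8-fold lower in BT474/Lap. CEACAM7 had 98.6 in SkBr3 cells against 21.9 in SkBr3/Lap, and 743 in BT474 cells against 43.5 in BT474/Lap, or 4.50-fold lower in SkBr3/Lap and 17.1-fold lower in BT474/Lap. Both genes were thus higher in parental BT474 than in parental SkBr3 cells, and CEACAM6 in SkBr3/Lap was under 2 times the lowest signal above background. A second CEACAM7 probe was not well above background in SkBr3 or SkBr3/Lap and read 159 in BT474 and 20.1 in BT474/Lap. CEACAM6 and CEACAM7 follow each other in the order of tested genes, with 1 annotated gene between them, and their promoter windows are similar. The windows run from 250 bases before to 50 after the start of the gene, 300 bases in all, and are shown for the pair because both genes were lower in both clones. In all promoter sequences printed here, from RefSeq on GRCh38.p14 and written 5′ to 3′ on the strand of the gene, capitals mark matches of the motifs listed with the promoters at the end, except for the common GC box, AP-2 motif and TGACG. For CEACAM6 (chr19:41755280-41755579, plus strand) the capitals match the letters of the TATA box (TATAAA) and end 134 bases before the start. The CEACAM7 window (chr19:41688221-41688520, minus strand) held no motif that is capitalized.
CEACAM6: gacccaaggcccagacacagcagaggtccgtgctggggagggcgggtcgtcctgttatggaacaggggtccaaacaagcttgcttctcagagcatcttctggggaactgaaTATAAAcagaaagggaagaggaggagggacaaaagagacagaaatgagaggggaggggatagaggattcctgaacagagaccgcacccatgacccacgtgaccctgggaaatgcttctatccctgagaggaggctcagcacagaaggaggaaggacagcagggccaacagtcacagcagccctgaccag
CEACAM7: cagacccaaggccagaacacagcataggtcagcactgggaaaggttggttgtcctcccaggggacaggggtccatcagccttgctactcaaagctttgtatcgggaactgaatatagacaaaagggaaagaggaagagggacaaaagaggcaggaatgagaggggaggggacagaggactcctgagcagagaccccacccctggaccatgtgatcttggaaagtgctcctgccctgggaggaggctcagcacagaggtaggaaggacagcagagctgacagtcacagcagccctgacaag
Aligned end to end, 247 of 304 columns (81.2%) were identical between these windows.

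The other 4 genes of this group were TSPAN9, CD302, FLT4 and TMPRSS4. TSPAN9, a tetraspanin, had 397 in SkBr3 cells against 12.6 in SkBr3/Lap, and 637 in BT474 cells against 125 in BT474/Lap, which was 31.6-fold lower in SkBr3/Lap and 5.10-fold lower in BT474/Lap. Another TSPAN9 probe that was well above background on all 4 arrays changed by -6.06 in SkBr3/Lap and -0.91 in BT474/Lap (log2), so the BT474/Lap difference rested on 1 of 2 probes. CD302, a C-type lectin receptor, had 289.6 in SkBr3 cells against 52.8 in SkBr3/Lap, and 47.9 in BT474 cells against 11.7 in BT474/Lap, and was 5.49-fold lower in SkBr3/Lap and 4.08-fold lower in BT474/Lap. A second CD302 probe was 2.57-fold lower in SkBr3/Lap, under the limit, and was not well above background in BT474/Lap. FLT4, the receptor for vascular endothelial growth factors C and D, had low signals of 46.9 in SkBr3 cells against 6.77 in SkBr3/Lap, and 41.3 in BT474 cells against 10.5 in BT474/Lap. FLT4 was 6.93-fold lower in SkBr3/Lap and 3.93-fold lower in BT474/Lap, but another of its probes changed by 0.07 in SkBr3/Lap and -0.83 in BT474/Lap (log2), so the probes of FLT4 disagreed. TMPRSS4, a type II transmembrane serine protease, had 9134 in SkBr3 cells against 158 in SkBr3/Lap, and 138 in BT474 cells against 38.2 in BT474/Lap. It was 57.9-fold lower in SkBr3/Lap and 3.61-fold lower in BT474/Lap, and its parental level was 66.3-fold higher in SkBr3 than in BT474.

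Ligands and other secreted proteins formed the largest group, with 12 probes of 9 genes. CX3CL1 encodes fractalkine, a chemokine that is membrane-bound until shed. Its brighter probe had 8025 in SkBr3 cells against 498 in SkBr3/Lap, and 7090.5 in BT474 cells against 889 in BT474/Lap, and was 16.1-fold lower in SkBr3/Lap and 7.97-fold lower in BT474/Lap. Its other probe in the set was 10.7-fold lower in SkBr3/Lap and 8.33-fold lower in BT474/Lap. The remaining CX3CL1 probe, well above background on all 4 arrays, was 3.90-fold lower in SkBr3/Lap and 2.76-fold in BT474/Lap, so the probes shared the direction and not the size. BMP7, a bone morphogenetic protein, had one of the brightest probes of the set, with 46159 in SkBr3 cells against 9784 in SkBr3/Lap, and 48529 in BT474 cells against 9312 in BT474/Lap. The brighter BMP7 probe was 4.72-fold lower in SkBr3/Lap and 5.21-fold lower in BT474/Lap, and the dimmer one 4.86-fold lower in SkBr3/Lap and 9.99-fold lower in BT474/Lap. TGFB3, a TGF-β ligand, had 6759.6 in SkBr3 cells against 79.1 in SkBr3/Lap, and 3739 in BT474 cells against 854 in BT474/Lap, which was 85.5-fold lower in SkBr3/Lap and 4.38-fold lower in BT474/Lap. The SkBr3/Lap value of TGFB3 was the largest single difference of the set, while its level in BT474/Lap was well above background. Its other probe was at least 41.8-fold lower in SkBr3/Lap, where it was not above background, and 5.47-fold lower in BT474/Lap.

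CPE, a carboxypeptidase that processes peptide hormones, had 8653 in SkBr3 cells against 1284 in SkBr3/Lap, and 1369 in BT474 cells against 193 in BT474/Lap. CPE was 6.74-fold lower in SkBr3/Lap and 7.08-fold lower in BT474/Lap, so the difference was nearly the same in both clones from parental levels that lay 6.32-fold apart. AZGP1 encodes zinc-alpha-2-glycoprotein, an androgen-responsive apocrine secretory protein. Its brighter probe had 1222 in SkBr3 cells against 66.7 in SkBr3/Lap, and 161 in BT474 cells against 36.9 in BT474/Lap, and was 18.3-fold lower in SkBr3/Lap and 4.36-fold lower in BT474/Lap. The dimmer AZGP1 probe was 12.9-fold lower in SkBr3/Lap and 3.36-fold lower in BT474/Lap. Both AZGP1 probes differed more in SkBr3/Lap, from the higher parental level. AREG, SEMA3E, MUCL1 and SERPINA3 were between 3.09-fold and 3.37-fold lower in BT474/Lap. AREG, the EGFR ligand amphiregulin, was 4.46-fold lower in SkBr3/Lap and 3.37-fold lower in BT474/Lap from parental signals of 318 in SkBr3 and 5872 in BT474. MUCL1, a small breast mucin, was 50.3-fold lower in SkBr3/Lap and 3.20-fold lower in BT474/Lap and still had a scaled signal of 28428 in BT474/Lap, against 11.7 in SkBr3/Lap. MUCL1 thus had the brightest probe of the set in BT474 cells and lay near background in SkBr3/Lap. SEMA3E, a class 3 semaphorin, was 4.65-fold lower in SkBr3/Lap and 3.20-fold lower in BT474/Lap. SERPINA3, a serine protease inhibitor, was 7.09-fold lower in SkBr3/Lap, and its other probe changed by -1.37 in SkBr3/Lap and -1.43 in BT474/Lap (log2). The AREG window (chr4:74444886-74445185, plus strand) is shown because it held a TATA box and the only cAMP response element (TGACGTCA) among the windows of the set, both in capitals, ending 24 and 58 bases before the start.
AREG: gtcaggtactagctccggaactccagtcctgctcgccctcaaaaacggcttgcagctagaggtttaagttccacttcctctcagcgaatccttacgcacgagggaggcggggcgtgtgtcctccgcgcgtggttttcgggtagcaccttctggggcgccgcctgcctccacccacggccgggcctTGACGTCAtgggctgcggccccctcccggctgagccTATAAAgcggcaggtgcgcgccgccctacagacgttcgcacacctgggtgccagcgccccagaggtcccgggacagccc

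Transcription factors and zinc finger proteins comprised EGR1, IRX5, KLF2, MNX1 and ZBED3. EGR1, the immediate early zinc finger factor downstream of ERK, had 1232 in SkBr3 cells against 175 in SkBr3/Lap, and 459 in BT474 cells against 59.1 in BT474/Lap. EGR1 was 7.05-fold lower in SkBr3/Lap and 7.77-fold lower in BT474/Lap, so both clones lay below both parental lines. IRX5, an Iroquois homeobox factor, had 2307 in SkBr3 cells against 498 in SkBr3/Lap, and 5160.5 in BT474 cells against 1066 in BT474/Lap by its brighter probe. This IRX5 probe was 4.63-fold lower in SkBr3/Lap and 4.84-fold lower in BT474/Lap. The other IRX5 probe was 5.20-fold lower in SkBr3/Lap and 5.66-fold lower in BT474/Lap, about the same difference in each clone. KLF2, a Krüppel-like factor, had 2092 in SkBr3 cells against 96.6 in SkBr3/Lap, and 6809 in BT474 cells against 1696 in BT474/Lap, and was 21.7-fold lower in SkBr3/Lap and 4.01-fold lower in BT474/Lap. Another KLF2 probe, with signals between 30.2 and 42.7, changed by only -0.42 in SkBr3/Lap and -0.45 in BT474/Lap (log2), so the probes of KLF2 disagreed. MNX1, a homeobox factor, had 2281 in SkBr3 cells against 508 in SkBr3/Lap, and 18041 in BT474 cells against 4584 in BT474/Lap, and was 4.49-fold lower in SkBr3/Lap and 3.94-fold lower in BT474/Lap. A dimmer MNX1 probe changed by -1.03 in SkBr3/Lap and -1.82 in BT474/Lap (log2), the same direction in both clones but under 3-fold in SkBr3/Lap. ZBED3, a zinc finger protein that binds axin, was 3.68-fold lower in SkBr3/Lap and 3.35-fold lower in BT474/Lap.

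In the windows of the set, the EGR motif was more common than in all RefSeq windows, tested or not. The EGR1 window (chr5:138465229-138465528, plus strand) is shown since EGR1 is both a member and the factor named for that motif. Its capitals are, in order, a STAT motif, an EGR motif and a pair of CArG boxes, the sites bound by serum response factor.
EGR1: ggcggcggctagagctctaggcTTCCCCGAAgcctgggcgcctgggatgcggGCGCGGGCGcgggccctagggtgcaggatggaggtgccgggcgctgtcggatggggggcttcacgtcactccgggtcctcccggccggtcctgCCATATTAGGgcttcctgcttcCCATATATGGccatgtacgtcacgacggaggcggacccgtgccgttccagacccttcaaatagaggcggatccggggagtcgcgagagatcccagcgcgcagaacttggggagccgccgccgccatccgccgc

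Ion channels and intracellular signaling proteins made up 6 genes. KCNMA1, the pore-forming subunit of the large-conductance calcium-activated potassium (BK) channel, had 1894 in SkBr3 cells against 68.8 in SkBr3/Lap, and 369.8 in BT474 cells against 12.8 in BT474/Lap. KCNMA1 was 27.5-fold lower in SkBr3/Lap and 28.8-fold lower in BT474/Lap, nearly the same in both clones. Of its 4 other probes, 1 was well above background on all 4 arrays and changed by -1.01 in SkBr3/Lap and -0.44 in BT474/Lap (log2), under 3-fold in both clones. Another was 5.60-fold lower in SkBr3/Lap and lower by at least 6.21-fold in BT474/Lap, where it was not well above background. These probes of KCNMA1 thus differed in size but not in direction. KCNS3, a silent potassium channel subunit, had 648 in SkBr3 cells against 129.6 in SkBr3/Lap, and 759.6 in BT474 cells against 149 in BT474/Lap, and changed by -2.32 and -2.35 (log2). PLCH1, a phospholipase C, had 466 in SkBr3 cells against 73.0 in SkBr3/Lap, and 139.7 in BT474 cells against 30.1 in BT474/Lap, and was 6.39-fold lower in SkBr3/Lap and 4.64-fold lower in BT474/Lap. NCALD, the calcium sensor neurocalcin delta, was 14.0-fold lower in SkBr3/Lap and 3.41-fold lower in BT474/Lap. Its SkBr3/Lap signal of 8.48 lay near background.

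SPRY4 and CISH are feedback inhibitors of receptor tyrosine kinase and of cytokine receptor signaling. SPRY4 had 129 in SkBr3 cells against 33.8 in SkBr3/Lap, and 97.6 in BT474 cells against 26.2 in BT474/Lap, and was 3.82-fold lower in SkBr3/Lap and 3.73-fold lower in BT474/Lap. CISH, a STAT5-induced member of the SOCS family, had 4392 in SkBr3 cells against 821 in SkBr3/Lap, and 6022 in BT474 cells against 1686 in BT474/Lap. CISH was 5.35-fold lower in SkBr3/Lap and 3.57-fold lower in BT474/Lap, and its other probe was 3.84-fold lower in SkBr3/Lap and 2.91-fold lower in BT474/Lap, just short of the limit in BT474/Lap. The CISH window (chr3:50611725-50612024, minus strand) is shown for its 4 STAT motifs, and the SPRY4 window (chr5:142324198-142324497, minus strand) for comparison with it. Capitals in CISH mark the STAT motifs, of which the last overlaps an ETS motif, and 2 EGR motifs, and in SPRY4 an EGR motif. The EGR motifs of both windows are on the opposite strand.
CISH: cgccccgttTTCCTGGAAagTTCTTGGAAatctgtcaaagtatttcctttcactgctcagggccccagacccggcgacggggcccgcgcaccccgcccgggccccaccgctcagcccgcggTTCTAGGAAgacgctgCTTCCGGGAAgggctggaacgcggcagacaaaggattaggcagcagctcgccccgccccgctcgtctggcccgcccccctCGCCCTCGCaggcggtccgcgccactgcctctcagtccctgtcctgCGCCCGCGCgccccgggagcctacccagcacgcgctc
SPRY4: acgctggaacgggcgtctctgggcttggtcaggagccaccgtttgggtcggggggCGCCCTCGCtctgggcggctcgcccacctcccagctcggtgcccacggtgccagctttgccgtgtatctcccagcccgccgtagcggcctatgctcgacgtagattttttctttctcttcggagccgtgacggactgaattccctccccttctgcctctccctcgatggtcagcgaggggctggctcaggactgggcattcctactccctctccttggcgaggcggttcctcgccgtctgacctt

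The group of metabolic enzymes included OPLAH of the gamma-glutamyl cycle, which turns over glutathione, and the gamma-glutamyltransferase copies GGTLC2 and GGT3P. OPLAH, the 5-oxoprolinase, had 82.6 in SkBr3 cells against 10.8 in SkBr3/Lap, and 91.4 in BT474 cells against 15.6 in BT474/Lap, and was 7.67-fold lower in SkBr3/Lap and 5.85-fold lower in BT474/Lap. GGTLC2 and GGT3P belong to a set of near-identical gamma-glutamyltransferase copies, so that the gene behind either probe is uncertain. GGT3P is a pseudogene by its symbol, and its probe is annotated to a non-coding RNA. GGTLC2 had 1339 in SkBr3 cells against 177 in SkBr3/Lap, and 784 in BT474 cells against 151 in BT474/Lap, and was 7.58-fold lower in SkBr3/Lap and 5.20-fold lower in BT474/Lap. GGT3P had 986 in SkBr3 cells against 119 in SkBr3/Lap, and 522 in BT474 cells against 119 in BT474/Lap, and was 8.31-fold lower in SkBr3/Lap and 4.39-fold lower in BT474/Lap. Both probes differed more in SkBr3/Lap. PRODH, proline dehydrogenase, was 5.96-fold lower in SkBr3/Lap and 3.16-fold lower in BT474/Lap, and GCNT1, a glycosyltransferase of O-glycan branching, was 3.95-fold lower in SkBr3/Lap and 3.21-fold lower in BT474/Lap. FMO5, a flavin-containing monooxygenase, was 22.6-fold lower in SkBr3/Lap and 3.11-fold lower in BT474/Lap, and a second probe was 2.58-fold lower in BT474/Lap. The signals of the first FMO5 probe, 7.14 in SkBr3/Lap and 11.7 in BT474/Lap, lay near background. GSTO2, an omega-class glutathione transferase, was 6.46-fold lower in SkBr3/Lap and 3.11-fold lower in BT474/Lap. FTMT, mitochondrial ferritin, was 3.52-fold lower in SkBr3/Lap and 4.59-fold lower in BT474/Lap from low signals, and another FTMT probe went the other way in BT474, where it was well above background in the clone (11.7) and not in the parental cells (3.47). Of these 8 genes, all but FTMT differed more in SkBr3/Lap.

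The remaining 8 genes were PALMD, SEPTIN5, GSDMD, MAP1LC3A, TMEM268, VOPP1, KLHL13 and PARP8. PALMD, or palmdelphin, had 243 in SkBr3 cells against 15.6 in SkBr3/Lap, and 124 in BT474 cells against 13.3 in BT474/Lap, and was 15.6-fold lower in SkBr3/Lap and 9.32-fold lower in BT474/Lap. SEPTIN5, a filament-forming GTPase, had 291 in SkBr3 cells against 26.0 in SkBr3/Lap, and 941 in BT474 cells against 174 in BT474/Lap, and was 11.2-fold lower in SkBr3/Lap and 5.42-fold lower in BT474/Lap. A dim SEPTIN5 probe was well above background in SkBr3/Lap (13.9) and not in SkBr3 (14.8). By the probes in the set, PALMD and SEPTIN5 stood among the 10 genes with the largest difference reached in both clones. GSDMD, the pore-forming protein of pyroptosis, was 3.43-fold lower in SkBr3/Lap and 14.3-fold lower in BT474/Lap, and PARP8, a mono-ADP-ribosyltransferase, was 3.02-fold lower in SkBr3/Lap and 25.9-fold lower in BT474/Lap. Both differed more in BT474/Lap, as CEACAM7 did. Their BT474/Lap signals, 13.1 for GSDMD and 13.6 for PARP8, lay near background, which limits the precision of these differences. MAP1LC3A, VOPP1, TMEM268 and KLHL13 differed more in SkBr3/Lap. MAP1LC3A, an autophagosome protein of the LC3 family, was 16.8-fold lower in SkBr3/Lap and 3.21-fold lower in BT474/Lap. VOPP1 was 11.3-fold lower in SkBr3/Lap and 3.14-fold lower in BT474/Lap, TMEM268 4.50-fold lower in SkBr3/Lap and 3.18-fold lower in BT474/Lap, and KLHL13, a ubiquitin ligase adaptor, 7.32-fold lower in SkBr3/Lap and 3.04-fold lower in BT474/Lap.

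Just inside the limit were PARP8 at -1.60 (log2) in SkBr3/Lap, and KLHL13 at -1.60 and SERPINA3 at -1.63 in BT474/Lap. Just outside were TP53INP2 at -1.58, RGS3 at -1.54 and the second CISH probe at -1.54, all in BT474/Lap. The standard error of a difference that follows from the error model of the scanner software ranged from 0.20 to 0.36 on the log2 scale, and it covers the spot and not the culture. The difference lay beyond the limit by at least 1 such error in both clones for 28 probes, in SkBr3/Lap for 43 and in BT474/Lap for 31. With normexp background correction and quantile normalization, 27 probes met the rule, of which 23 were among the 46. A set of 20 probes lay past 3-fold in both clones under each of 5 other scalings, corrections and offsets, and also in the deposited log2 table and without outlier spots. Its genes were BMP7, CX3CL1 and IRX5 with 2 probes each, and CEACAM6, CISH, CPE, EGR1, GGT3P, GGTLC2, KCNMA1, KCNS3, KLF2, MNX1, PALMD, SEPTIN5, TGFB3 and TSPAN9.

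**Figure D3:**
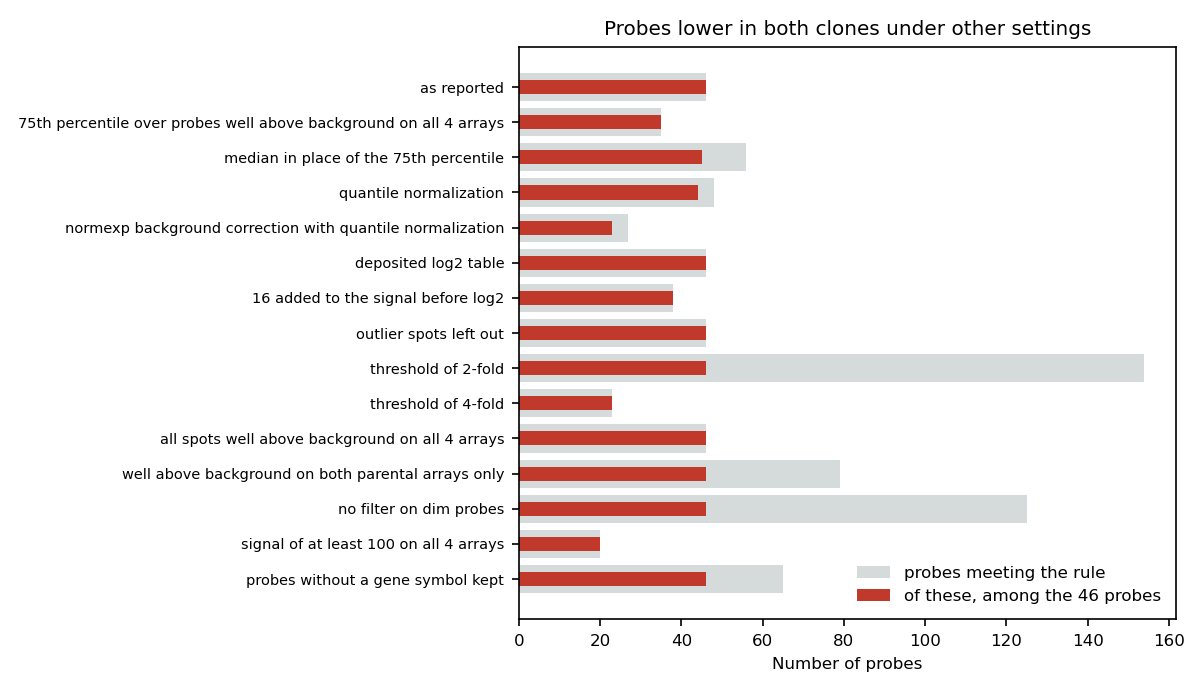
Number of probes at least 3-fold lower in both clones (x axis; 2-fold or 4-fold where stated) under each setting (gray), and how many of them are among the 46 probes (red). By construction all 46 remain when the filter on dim probes is loosened, and 125 probes pass without it. Under normexp 23 of 27 are shared.

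Outside the set, 22 more probes belonged to 17 of the 42 genes. Of these, 8 were well above background on all 4 arrays, 7 of the 8 were below the parental level in both clones, against 31% of all probes tested, and 4 (CISH, CX3CL1, MNX1 and SERPINA3) were at least 2-fold lower in both, against 0.939%. The other 14 probes were not well above background on at least 1 array.

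The filter on all 4 arrays leaves out RNAs that were not above background in a clone. Of 227 named probes well above background on both parental arrays but not in both clones, 28 probes of 27 genes were at least 3-fold lower in both, by value or by the limit that background sets, and 3 of these genes (KCNMA1, SEPTIN5 and TGFB3) were also in the set. SRARP, named here after its values were seen, had the largest difference reached in both. The scaled signal of its brighter probe was 9104 in SkBr3 and 4428 in BT474, and it was not well above background in SkBr3/Lap. It was at least 1419.6-fold lower in SkBr3/Lap, against the lowest signal above background there, and 288-fold lower in BT474/Lap. Its other probe was at least 186-fold lower in SkBr3/Lap and 36.5-fold lower in BT474/Lap. A further 19 probes without a gene symbol met the rest of the rule, of 8665 such probes.

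Of 140 measured genes in 12 lists, 3 of which hold markers of other cell types, 23 were at least 3-fold lower in SkBr3/Lap, 11 in BT474/Lap, and 4 in both (EGR1, SPRY4, AZGP1 and CEACAM6), beside 5.26%, 1.49% and 0.281% of all probes. The lists were chosen with earlier results of these data known, so these counts are no test. A listed gene counts once by its brightest probe, whereas the shares of all are per probe. For ERK pathway output, 18 genes were measured, of which 2 were lower in SkBr3/Lap, 7 in BT474/Lap and 2 (EGR1 and SPRY4) in both. The median change of this list was 0.51 (log2) in SkBr3/Lap and -0.85 in BT474/Lap, against -0.09 and -0.11 over all probes tested. Of the 18, 6 were below the parental level in SkBr3/Lap against 11 in BT474/Lap. The list median thus had opposite signs in the clones. DUSP6, the ERK phosphatase, changed by 1.29 in SkBr3/Lap and -2.08 in BT474/Lap (log2), and DUSP4 by 0.05 in SkBr3/Lap and -3.06 in BT474/Lap. FOS, an immediate early gene like EGR1, changed by 2.05 in SkBr3/Lap and 1.46 in BT474/Lap, so it was above its parental level in both clones while EGR1 was below. Among 11 androgen response and apocrine genes, 7 were lower in SkBr3/Lap, 2 in BT474/Lap and AZGP1 in both, with medians of -2.52 and -0.70. PIP, another apocrine secretory protein, changed by -6.64 in SkBr3/Lap and 0.73 in BT474/Lap (log2).

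Of 12 cell adhesion genes, 3 were at least 3-fold lower in SkBr3/Lap and CEACAM6 alone was so in BT474/Lap. None of 17 luminal epithelial, 13 estrogen response or 14 HER2 amplicon genes was at least 3-fold lower in both clones. By this limit 6, 3 and 3 of them were lower in SkBr3/Lap and 0 in BT474/Lap. Of the 17 luminal genes, 14 were below the parental level by any amount in SkBr3/Lap and 16 in BT474/Lap. Their median changes were -0.59 (log2) in SkBr3/Lap and -0.65 in BT474/Lap, against -0.09 and -0.11 over all probes tested. The medians were -0.56 and 0.23 for estrogen response genes, and -0.37 and -0.10 for HER2 amplicon genes. None of 20 cell cycle genes passed 3-fold in either direction in either clone. Of 17 sterol and fatty acid synthesis genes, 1 was at least 3-fold lower in each clone. Of 13 FOXO and PI3K feedback genes, 1 was at least 3-fold lower in SkBr3/Lap.

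The measured relatives in 13 families of the members, chosen after the values were seen, passed the same filter as the set. A relative at least 3-fold lower in both clones would itself be in the set, so by the rule none was. Among EGFR ligands, the changes (log2, SkBr3/Lap first) were -2.73 and 0.00 for BTC, -2.42 and -1.33 for EGF, 3.21 and 0.38 for HBEGF, and -2.16 and -1.75 for AREG. HBEGF was thus higher in SkBr3/Lap, where AREG was lower. Among SOCS genes, none of 7 relatives of CISH was 3-fold lower in either clone, and SOCS3 changed by 2.44 in SkBr3/Lap and 1.29 in BT474/Lap. In the Sprouty and Spred family, SPRY1 changed by 0.19 in SkBr3/Lap and -1.87 in BT474/Lap. SPRED1 changed by -0.38 in SkBr3/Lap and -1.89 in BT474/Lap, so both passed the limit in BT474/Lap and not in SkBr3/Lap. IRX3, which lies close to IRX5 in the genome, changed by -7.52 in SkBr3/Lap and -1.46 in BT474/Lap (log2), just under 3-fold in BT474/Lap. KCNMB4, an auxiliary subunit of the BK channel, was higher by 2.34 in SkBr3/Lap and 1.67 in BT474/Lap, where KCNMA1 was lower. CEACAM1 changed by 1.51 in SkBr3/Lap and -0.08 in BT474/Lap, unlike CEACAM6 and CEACAM7.

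**Figure D4:**
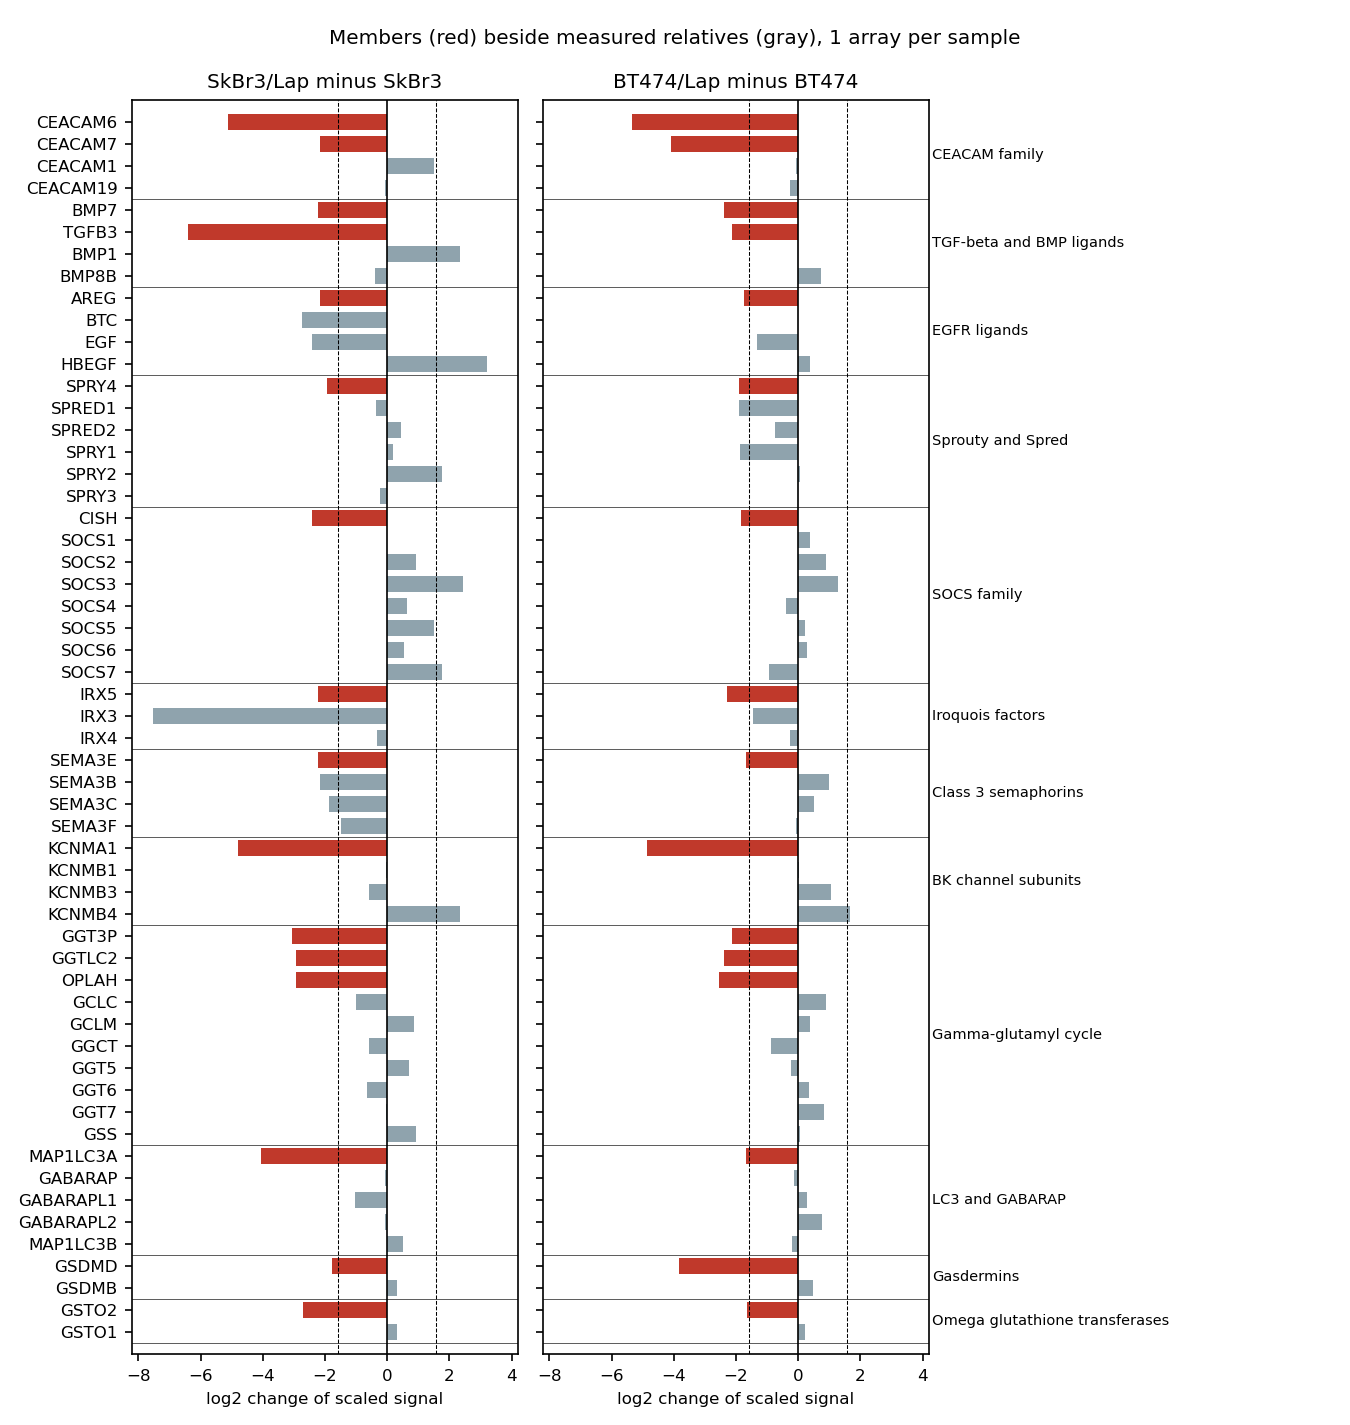
Log2 change of the scaled signal in SkBr3/Lap (left) and BT474/Lap (right), each minus its parental cells, for genes of the set (red) and measured relatives (gray) in 12 families, with 1 probe per gene and 1 array per sample. Dashed lines mark 3-fold. By the rule no gray bar can pass the left line in both panels, and IRX3 comes nearest, with -7.52 and -1.46.

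By the RefSeq order of genes, chromosome 5 held 6 of the 42 genes (14.3%, against 4.38% of all tested genes) and chromosome 22 held 4 (9.52% against 2.46%), while chromosome 17, which carries HER2, held 0 of 717 tested. On chromosome 22, GGT3P and PRODH had 1 tested gene between them, PRODH and SEPTIN5 had 9, and SEPTIN5 and GGTLC2 had 30. The genes behind the GGT3P and GGTLC2 probes are uncertain, so their places and the count for chromosome 22 are uncertain too. The median change of the 10 tested genes on each side had a median of -0.24 (log2) over the 42 genes in SkBr3/Lap and -0.14 in BT474/Lap, against -0.09 and -0.11 around other genes. This neighborhood value was below the 5th percentile of other genes for 4 of the 42 genes in SkBr3/Lap and 7 in BT474/Lap. The lowest neighborhood value was -0.72 in SkBr3/Lap and -0.49 in BT474/Lap. The 3-fold limit is set for single probes and cannot judge such medians, whose 5th percentile was -0.61 and -0.37 around other genes. The highest value in SkBr3/Lap was 1.35, around GGTLC2. Around GGT3P, PRODH and SEPTIN5, also on chromosome 22, it was 0.66, 0.75 and 0.87. The BT474/Lap values of these 4 genes lay between -0.37 and -0.14. Whether a region of the genome changed as a whole was not tested.

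Promoter windows were found for 28 of the 42 genes, 46 windows in all because some genes have several starts, out of 35116 windows in the RefSeq table. BMP7, CX3CL1, FLT4, GGT3P, GGTLC2, GSDMD, IRX5, MAP1LC3A, NCALD, OPLAH, PRODH, SEPTIN5, TMPRSS4 and TSPAN9 had none. The median GC content was 62.3%, against 58.7% over all windows. The EGR motif (GCGNGGGCG) was in 10 windows of 10 genes (21.7%, against 9.43% of all windows), those of CD302, CISH, EGR1, GCNT1, KCNMA1, KCNS3, KLF2, KLHL13, MNX1 and SPRY4. The CArG box was in 4.35% against 1.29%, from EGR1 and VOPP1. These motifs had the largest ratios to the share of all windows among the 14 searched. All windows include those of genes that did not pass the filter on all 4 arrays. Shares over the tested genes alone were not computed. The GC box (GGGCGG), which can overlap the EGR motif, was in 45.7% against 45.0%, the AP-2 motif (GCCNNNGGC) in 30.4% against 23.2%, the STAT motif (TTCNNNGAA) in 8.70% against 7.66% and the TATA box (TATAAA, sense strand) in 8.70% against 7.33%. The cAMP response element (TGACGTCA) was in 2.17% against 1.85%, and its shorter form (TGACG), which lies within it, in 28.3% against 24.6%. The E2F motif (TTTCCCGC) was in 2.17% against 1.63%. Below the share of all windows were the ETS motif (CCGGAAG) at 8.70% against 10.3%, the AP-1 motif (TGANTCA) at 4.35% against 7.71%, the kappa-B motif at 2.17% against 6.52% and the FOXO motif (TGTTTAC) at 2.17% against 3.42%. The estrogen response element was in 0 of the 46 windows. All but the TATA box were searched on both strands, and a match describes the letters in the window and not a bound site.

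**Figure D5:**
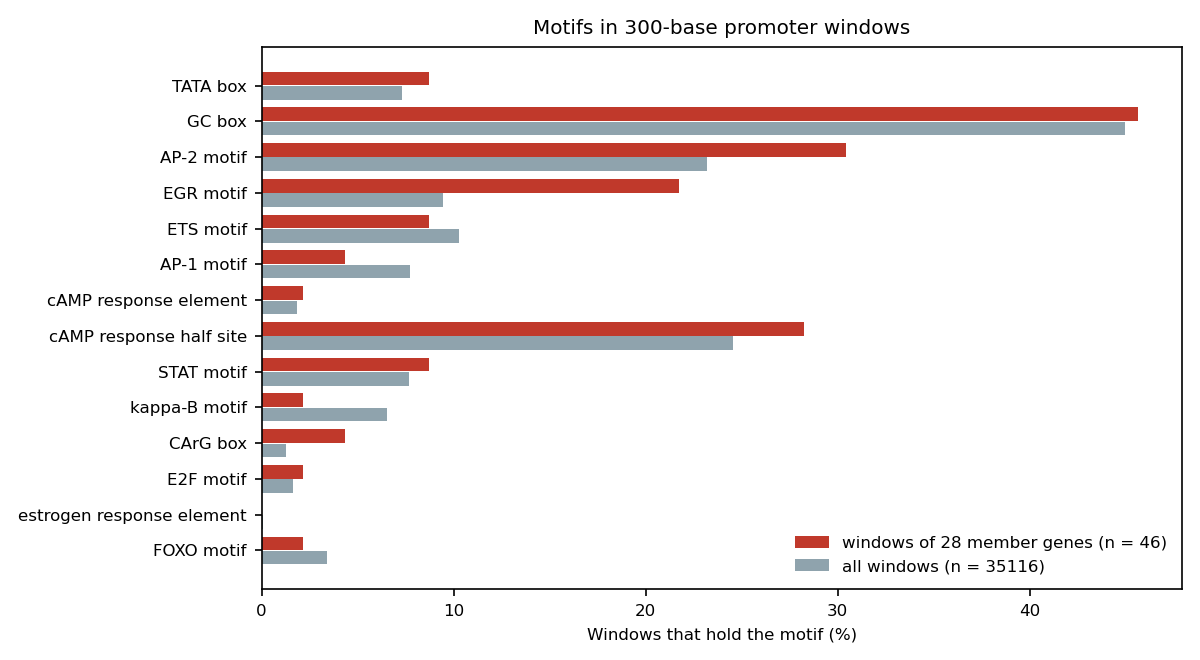
Share of promoter windows of 300 bases that hold each motif (x axis, %), for 46 windows of 28 genes lower in both clones (red) and 35116 windows of all genes in the RefSeq table (gray). The EGR motif stands at 21.7% against 9.43%, while the GC box is near 45% in both.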

How the data were processed

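RNA from 4 samples was hybridized to Agilent Human Whole Genome 4 × 44 K arrays in a single Cy3 channel, 1 array per sample. The processed signal of every spot, which the authors deposited, is a linear intensity corrected for background and trend in Feature Extraction 10.1.1.1 per the file headers, whereas the methods name an earlier version and LOWESS. The authors also deposited log2 values centered for each probe, with array medians of 0.12, -0.20, 0.11 and -0.05 for SkBr3, SkBr3/Lap, BT474 and BT474/Lap. Their clone-minus-parental differences departed from those used here by a median of 0.00073 for SkBr3/Lap and, for BT474/Lap, of -0.00059, so the table tests no other scaling. How the authors centered the probes is not given in the sources used here.

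The log2 processed signals of a probe were averaged over its spots and the 75th percentile of the array over 41000 non-control probes was subtracted. Probes were named through RefSeq accessions (GRCh38.p14, names and gene order only), which named 23680. All member probes had 1 spot. A gene in a list or family was represented by its brightest probe well above background on all 4 arrays. With 1 array per group no test or p-value was computed, and the number of arrays limits the precision. The members and the lists were chosen with earlier results of these data known. Every gene of the set is named, signals on all 4 arrays are given for the 25 genes with the largest smaller-of-both difference and for those in a list, and 3 probes are given on each side of the limit. Families, roles and motifs were chosen after the values were seen. Alternatives were other scalings, quantile normalization, normexp on median pixel intensities (limma 3.58.1 in R 4.3.3), the deposited log2 table, an offset of 16, outlier spots left out, other filters and other thresholds. Python 3.11.15 with numpy 2.4.6, pandas 2.3.3 and matplotlib 3.10.9 was used. The code of the rule was run on simulated data with large differences planted in brighter probes. That run checks the code only and says nothing about the members.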

Additional observations from a re-analysis of the deposited data

Results flagged for a closer look

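Among the ERK pathway output genes and the relatives of the members, DUSP6 and ETV4 moved by at least 2-fold in opposite directions in the clones. DUSP6 changed by 1.29 (log2) in SkBr3/Lap and by -2.08 in BT474/Lap. ETV4, an ETS factor induced by ERK, changed by 1.53 in SkBr3/Lap and by -1.64 in BT474/Lap. The scaled signals of ETV4 in SkBr3 (22.3) and BT474/Lap (12.8) were under 2 times the lowest signal above background, which limits the precision of its changes. The difference between the clones was not tested, since each value compares 1 array with 1 array.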

How the results depend on the processing

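The count of 46 probes became 27 with normexp background correction and quantile normalization, 154 with a limit of 2-fold, 23 with a limit of 4-fold, 79 when only the parental arrays had to be well above background, 125 with no filter on dim probes and 20 when a signal of at least 100 was asked on all 4 arrays. It was between 35 and 65 under the other 8 settings. With normexp, genes of the lists lower in BT474/Lap numbered 6 in place of 11, and in both clones 2 in place of 4, whereas the other settings left 10 to 12 and 4. Of 460 values of the 46 probes under 5 other scalings, corrections and offsets, 411 remained at least 3-fold lower, 49 were lower by less and 0 changed sign. The deposited log2 table holds nearly the same differences and all 46 probes have 1 spot, so that table and leaving out outlier spots could hardly change a value, and neither did. When arrays were scaled to their median, the median change of all tested probes went from -0.09 to 0.06 (log2) in SkBr3/Lap and, in BT474/Lap, from -0.11 to -0.32, and 45 of the 46 probes still met the rule. Why the counts moved was not tested beyond the construction of the filters and limits. No paired analysis was possible because each group has 1 array. Leaving out an array would leave a clone or its parental cells without a value. In SkBr3/Lap 8 of the 46 probes, and in BT474/Lap 9, were under 2 times the lowest signal above background, which limits the precision of their differences.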
